A study of Mus musculus with 12 samples.

Results

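The genes described here are 42 mouse genes of DNA replication and S phase, matched to the deposited tables by gene symbol. This list and the wider lists below were chosen by function, with earlier results of these data known. Their shares are therefore descriptive and are no test of enrichment. RNA was sequenced from AML12 cells, a hepatocyte line derived from the liver of a mouse carrying a human TGF-alpha transgene, in 12 libraries that form 4 groups of 3. One contrast sets cells transfected with a GFP-DUSP6 plasmid against cells given a GFP plasmid, both collected after 24 h; the other sets cells given an siRNA specific for DUSP6 (siDUSP6) against cells given negative-control siRNA (NC), both collected after 48 h. All 4 groups were lipofected and grown in serum with dexamethasone and an insulin, transferrin and selenium supplement. AML12 is a single line, and whether replicates were separate cultures is not stated, so the p-values cover library-to-library spread only, and that spread may be technical.

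The authors deposited 1 table per contrast, and each holds only genes selected for a low p-value. The plasmid table lists 707 genes and holds 29 of the 42 members. The siRNA table lists 2150 genes and holds 7 of the 42, all of which are also in the plasmid table. Of 2600 genes listed in either table, 29 are therefore members. The other 13 members, Orc1, Orc6, Gins1, Gins3, Rfc4, Fen1, Dut, Slbp, Ccne1, Ccne2, E2f1, Fanci and Rpa2, are listed in neither table and have no values here.

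Dusp6, the phosphatase gene that both transfections target, was read first as a check of the labels. It had 2433, 2421 and 2208 normalized counts in the libraries labelled GFP-DUSP6, against 3327, 3311 and 3417 in GFP libraries. The log2 fold change was -0.51 ± 0.06, so its count was lower in the libraries labelled GFP-DUSP6, against their label. What DUSP6 sequence the plasmid carries is not given in the labels. In the siRNA contrast Dusp6 had 1742, 1833 and 1775 normalized counts in siDUSP6 libraries, against 4059, 3945 and 3801 in NC libraries, a log2 fold change of -1.14 ± 0.06, which goes with the label. Directions in the plasmid contrast are therefore given for the libraries labelled GFP-DUSP6 and not for a level of DUSP6.

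A cell copies its DNA once per cycle. In G1 the origin recognition complex, CDC6 and CDT1 load the ring-shaped MCM helicase on origins, and in S phase CDC45 and the GINS complex join MCM to unwind DNA for the polymerases. Nucleotide synthesis, chromatin assembly and maintenance methylation run alongside. Many of these genes are transcribed in late G1 and S phase under E2F factors. Hepatocytes in the adult liver rarely divide, whereas AML12 is a proliferating line. In RNA from whole cultures, more cells in S phase and more RNA per cell cannot be told apart.

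Promoter sequences were available for 36 of the 42 members, as 43 windows of 300 bases (RefSeq starts, GRCm38.p6), each with 250 bases before the annotated start and 50 from it on. Mcm4, Gins1, Gins2, Pole, Ccne2 and Tipin have none. The windows below belong to the MCM subunits Mcm3, Mcm5 and Mcm6, to Pola1 and to Rrm2. Those of Mcm3, Mcm5, Mcm6 and Pola1 are shown as examples of windows with an E2F-type word, and that of Rrm2, whose siRNA log2 fold change was farthest from 0 among the members, as one without it. Capitals mark E2F-type words (TTTCCCGC, TTTCGCGC, TTTGCCGC or TTTGGCGC) and CCAAT words, on either strand, and each window runs 5′ to 3′ along its gene.
Mcm3, chr1:20820263-20820562, minus strand: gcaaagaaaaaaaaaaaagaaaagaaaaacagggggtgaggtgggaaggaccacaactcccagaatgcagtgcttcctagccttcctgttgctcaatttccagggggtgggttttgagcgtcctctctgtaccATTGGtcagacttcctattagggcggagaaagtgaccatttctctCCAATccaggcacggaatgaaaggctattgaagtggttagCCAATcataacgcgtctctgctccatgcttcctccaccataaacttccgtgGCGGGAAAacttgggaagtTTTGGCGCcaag
Mcm5, chr8:75109259-75109558, plus strand: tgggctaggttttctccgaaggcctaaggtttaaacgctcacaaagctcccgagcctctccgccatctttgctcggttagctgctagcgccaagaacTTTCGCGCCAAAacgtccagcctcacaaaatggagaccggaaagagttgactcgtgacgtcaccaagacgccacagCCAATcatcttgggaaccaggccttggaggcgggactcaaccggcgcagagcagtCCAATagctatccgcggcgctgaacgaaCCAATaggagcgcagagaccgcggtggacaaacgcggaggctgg
Mcm6, chr1:128359656-128359955, minus strand: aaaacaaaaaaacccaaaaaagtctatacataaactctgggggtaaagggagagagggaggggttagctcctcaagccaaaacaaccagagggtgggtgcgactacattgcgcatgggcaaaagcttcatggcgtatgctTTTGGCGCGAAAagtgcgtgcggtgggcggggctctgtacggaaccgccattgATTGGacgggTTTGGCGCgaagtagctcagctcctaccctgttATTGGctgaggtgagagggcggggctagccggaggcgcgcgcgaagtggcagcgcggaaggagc
Pola1, chrX:93632106-93632405, minus strand: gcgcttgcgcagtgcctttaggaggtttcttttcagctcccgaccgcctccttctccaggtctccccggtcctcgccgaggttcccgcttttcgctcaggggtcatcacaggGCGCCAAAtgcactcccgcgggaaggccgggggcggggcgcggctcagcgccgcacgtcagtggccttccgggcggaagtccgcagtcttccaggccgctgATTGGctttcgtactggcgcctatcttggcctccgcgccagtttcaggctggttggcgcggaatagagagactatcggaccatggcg
Rrm2, chr12:24708004-24708303, plus strand: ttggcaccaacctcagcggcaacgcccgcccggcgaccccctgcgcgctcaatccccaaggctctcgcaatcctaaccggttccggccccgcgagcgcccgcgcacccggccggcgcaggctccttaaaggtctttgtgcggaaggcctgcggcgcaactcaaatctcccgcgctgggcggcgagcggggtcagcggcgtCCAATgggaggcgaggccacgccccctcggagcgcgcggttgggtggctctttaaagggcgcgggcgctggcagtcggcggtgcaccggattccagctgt

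An E2F-type word stood in 14 of the 43 member windows (32.6%), against 2.26% of 32851 windows of all genes and 2.85% of 21263 windows of protein-coding genes. It stood in 12 of 31 windows of members called in the plasmid contrast (38.7%) and in 2 of 12 windows of members listed in neither table (16.7%). Of the 6 windows of members called in both contrasts, 2 hold it (33.3%), those of Mcm3 and Pola1, and those of Rrm1, Rrm2, Rfc5 and Chaf1b do not. Matches that overlapped were counted separately, as in the windows of Mcm5 and Mcm6, and in the Mcm7 window 1 E2F-type word overlaps a CCAAT word. CCAAT, the word bound by NF-Y, stood in 58.1% of member windows, against 37.4% of all windows and 38.2% of protein-coding ones. TTTGAA, a core of the cell cycle homology region found in genes of later cell cycle phases, stood in 11.6% of member windows, against 17.9% of all windows and 16.0% of protein-coding ones. The median GC was 58.3% in member windows, 56.3% in windows of protein-coding genes and 52.7% over all windows. These matches describe the letters of the windows and were not measured as binding.

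**Figure D1:**
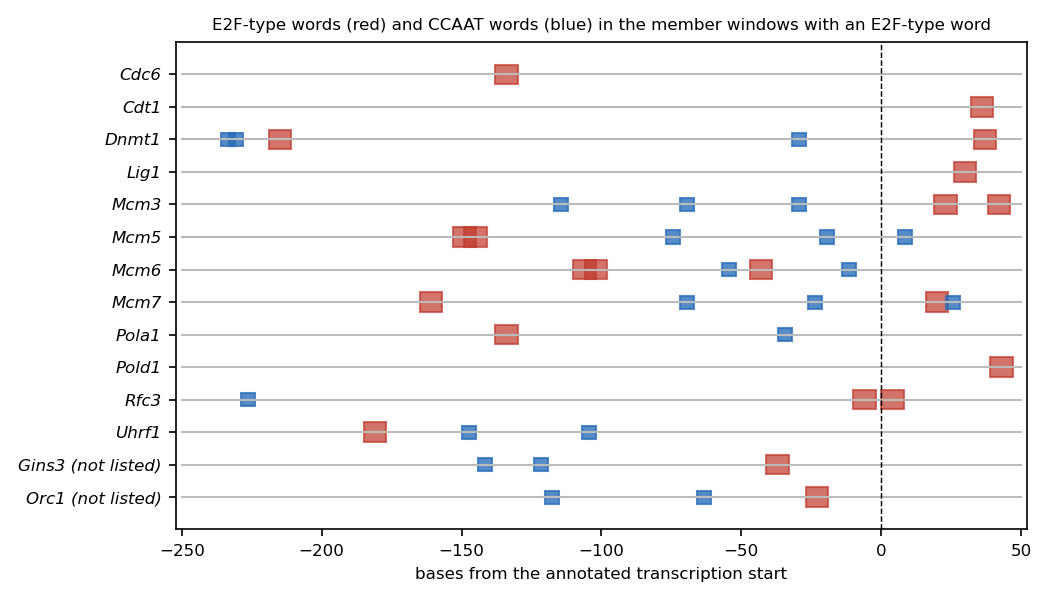
Position of E2F-type words (red) and CCAAT words (blue) in the 14 member windows that hold an E2F-type word, in bases from the annotated transcription start (dashed line). The windows belong to 12 members called in the plasmid contrast and to Orc1 and Gins3, which are listed in neither table.

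In the plasmid contrast, 29 of the 42 members (69.0%) were called higher in the libraries labelled GFP-DUSP6 and 0 were called lower, where a call is an adjusted p under 0.05 in the authors' deposited table (DESeq2). Of 12592 genes that the deposited p-values imply were tested, 3.39% were called higher and 1.22% lower. The log2 fold changes of the called members, from an edgeR quasi-likelihood refit, ran between 0.31 for Mcm7 and 0.74 for Cdc6 with a median of 0.47, a fold of 1.39. The median over all 427 genes called higher was 0.44, near that of the members. No called member reached a fold of 2 (0 of 29). Their adjusted p in the authors' deposited table (DESeq2) lay between 2.07e-16 for Mcm3 and 0.03 for Rfc3. The 3 libraries labelled GFP-DUSP6 and the 3 GFP libraries did not overlap for any of the 29, but this holds for 97.6% of the listed genes, which were selected for their p.

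The members are listed because of their p in this contrast, so their library values show the spread and are no separate support. Relative to the mean of the GFP libraries, the 29 members averaged 0.46, 0.48 and 0.55 on the log2 scale in replicates 1, 2 and 3 labelled GFP-DUSP6, against -0.01, 0.06 and -0.05 in the GFP libraries. All 29 lay above the GFP mean in each of the 3, which follows from groups that do not overlap. Replicate 3 labelled GFP-DUSP6 was the highest of its group for 18 of the 29. In the edgeR quasi-likelihood refit all 29 passed an adjusted p of 0.05, beside 4.20% of all tested genes (3.18% higher and 1.02% lower), and without that replicate 17 members (40.5%) and 1.58% of all tested genes did (199 genes). Only listed genes could be refitted. Unlisted genes and members count as not passing, so refit shares of all tested genes are lower bounds. At an adjusted p under 0.01 in the authors' deposited table, 25 members were called, beside 2.85% of all tested genes. Scaling on the listed genes alone, most of which were called higher, lowered the median log2 fold change of the listed genes by 0.30 (TMM) or 0.32 (median of ratios). The edgeR refit then passed 5 or 2 members as higher (11.9% or 4.76% of the 42), beside 0.453% or 0.349% of all tested genes, and Mcm7 lay at -0.01 with median of ratios.

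**Figure D2:**
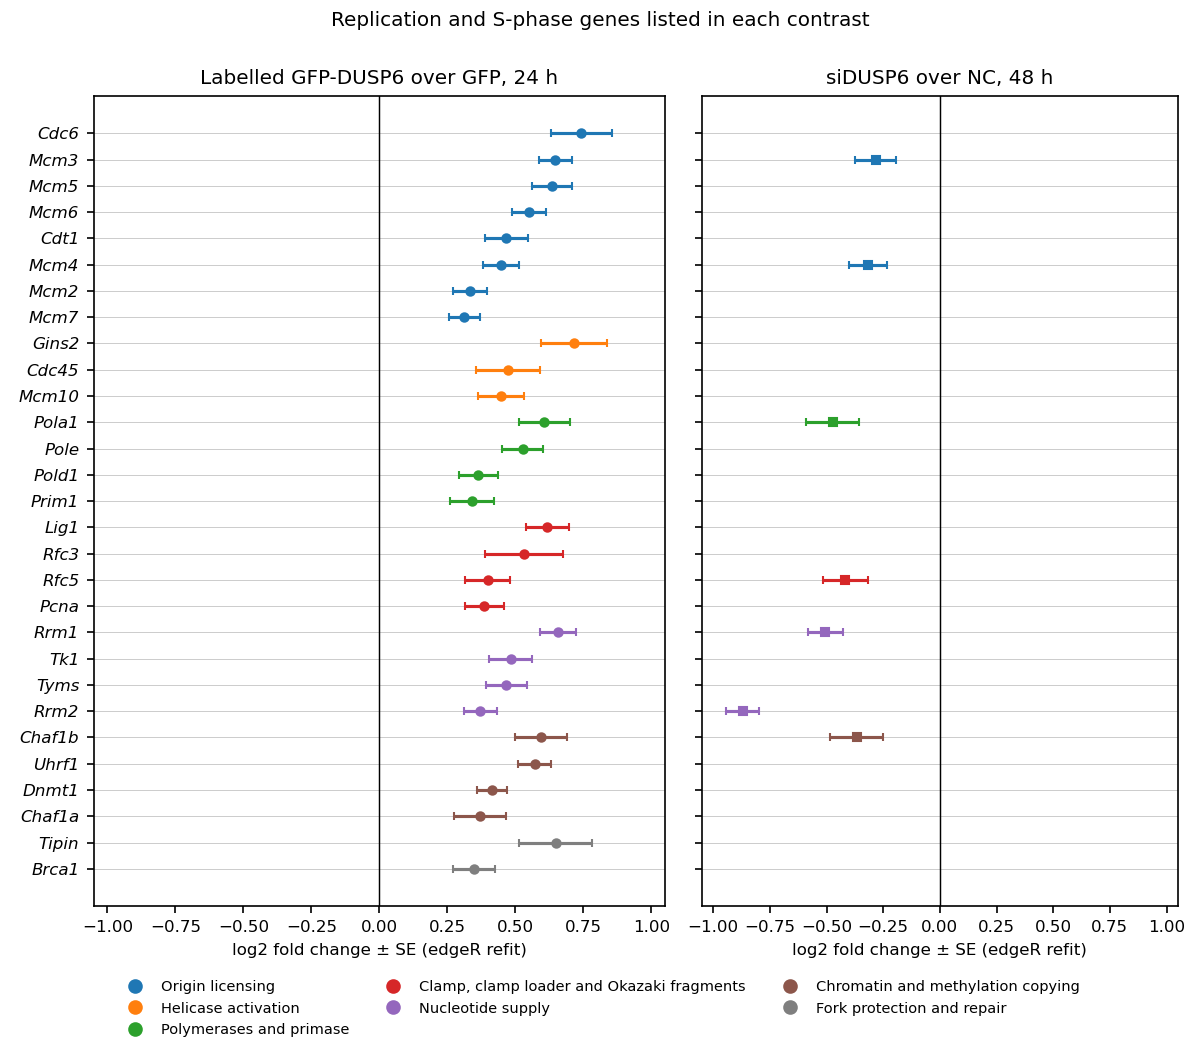
Log2 fold change ± SE of each listed member (edgeR quasi-likelihood refit, 3 libraries a group), labelled GFP-DUSP6 over GFP at the left and siDUSP6 over NC at the right, coloured by role. All 29 points at the left lie above 0 and all 7 at the right lie below 0; members without a point are not in that table.

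Origin licensing was the largest role group, with 8 of its 10 members called higher and 0 lower. Mcm3, a subunit of the MCM ring, had 2667, 2688 and 2750 normalized counts in the libraries labelled GFP-DUSP6, against 1720, 1842 and 1618 in GFP libraries. Its log2 fold change was 0.65 ± 0.06, and its replicates were close, with the lowest library labelled GFP-DUSP6 well above the highest GFP library. Mcm5, another ring subunit, had 2828, 3105 and 3290 normalized counts in the libraries labelled GFP-DUSP6, against 1764, 2148 and 2032 in GFP libraries, a log2 fold change of 0.63 ± 0.07. Mcm6 had 2387, 2575 and 2572 normalized counts in the libraries labelled GFP-DUSP6, against 1693, 1833 and 1622 in GFP libraries, a log2 fold change of 0.55 ± 0.06. For both, the highest GFP library was replicate 2, and it lay under every library labelled GFP-DUSP6. Mcm4 had 1532, 1539 and 1579 normalized counts in the libraries labelled GFP-DUSP6, against 1199, 1137 and 1078 in GFP libraries, a log2 fold change of 0.45 ± 0.07. The loading factors Cdc6 and Cdt1 had log2 fold changes of 0.74 ± 0.11 and 0.47 ± 0.08, and the ring subunits Mcm2 and Mcm7 of 0.33 ± 0.06 and 0.31 ± 0.06. The 6 ring subunits, which the cell assembles in equal numbers, thus ranged between 0.31 and 0.65 in log2 fold change. Orc1 and Orc6, of the origin recognition complex, are not listed.

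Helicase activation had 3 of 5 members called higher and 0 lower. Gins2, a subunit of the GINS complex, had 295, 291 and 287 normalized counts in the libraries labelled GFP-DUSP6, against 167, 194 and 172 in GFP libraries, with a log2 fold change of 0.71 ± 0.12. Mcm10, which helps to start unwinding, had 868, 778 and 927 normalized counts in the libraries labelled GFP-DUSP6, against 649, 642 and 597 in GFP libraries, with a log2 fold change of 0.45 ± 0.08. Gins2 is among the least abundant members, and Mcm10 varied more between the libraries labelled GFP-DUSP6. The groups were apart for both, as for 97.6% of the listed genes. Cdc45, the partner that joins MCM and GINS in the active helicase, had a log2 fold change of 0.47 ± 0.12. The Gins2 count carries an added doubt, because 67.3% of its exonic bases overlap exons of Gse1 on the opposite strand and the sources used here do not give whether counting used strand. Gse1 is not listed in either table.

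All 4 members among the polymerases and primase were called higher. Pola1, the catalytic subunit of polymerase alpha, which extends the RNA primer, had 879, 869 and 988 normalized counts in the libraries labelled GFP-DUSP6, against 673, 530 and 593 in GFP libraries. Its log2 fold change was 0.61 ± 0.09, with a wider spread in the GFP libraries than Mcm3 had. Pole, the catalytic subunit of the leading-strand polymerase epsilon, had 1305, 1239 and 1400 normalized counts in the libraries labelled GFP-DUSP6, against 904, 969 and 866 in GFP libraries, a log2 fold change of 0.53 ± 0.07. Pold1, the catalytic subunit of the lagging-strand polymerase delta, had 1493, 1652 and 1637 normalized counts in the libraries labelled GFP-DUSP6, against 1165, 1330 and 1226 in GFP libraries, a log2 fold change of 0.36 ± 0.07. The order of these log2 fold changes put Pola1 and Pole above Pold1, and above the primase subunit Prim1 at 0.34 ± 0.08; differences between the 4 genes were not tested.

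Of the 6 genes for the sliding clamp, its loader and Okazaki fragment joining, 4 were called higher and 0 lower. Lig1, the ligase that seals Okazaki fragments, had 1327, 1317 and 1455 normalized counts in the libraries labelled GFP-DUSP6, against 852, 982 and 839 in GFP libraries, a log2 fold change of 0.62 ± 0.08. Pcna, the clamp that holds polymerases on DNA, had 1061, 1105 and 1175 normalized counts in the libraries labelled GFP-DUSP6, against 853, 872 and 832 in GFP libraries, a log2 fold change of 0.39 ± 0.07. In both genes the group spreads were small beside the gap. The clamp loader subunit Rfc5 had 740, 739 and 820 normalized counts in the libraries labelled GFP-DUSP6, against 553, 589 and 602 in GFP libraries, a log2 fold change of 0.40 ± 0.08. A second loader subunit, Rfc3, had a log2 fold change of 0.53 ± 0.14 and 1 low GFP library, at 184 against 274 and 277 in the other two. Exons of Wsb2 on the opposite strand overlap 10.7% of the exonic bases of Rfc5. Rfc4 and Fen1, the flap nuclease, are not listed. For Pcna, 19.1% of its 50-base exonic words recur in other genes, most often in the processed pseudogene Pcna-ps2, so reads may be divided between them.

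Nucleotide supply had 4 of 5 members called higher and 0 lower. Rrm1, the large subunit of ribonucleotide reductase, had 2512, 2220 and 2482 normalized counts in the libraries labelled GFP-DUSP6, against 1607, 1528 and 1445 in GFP libraries. Its log2 fold change of 0.66 ± 0.07 exceeded that of Rrm2, the small subunit whose amount limits the enzyme in S phase. Rrm2 had 4172, 3643 and 4095 normalized counts in the libraries labelled GFP-DUSP6, against 3166, 3146 and 2899 in GFP libraries, a log2 fold change of 0.37 ± 0.06. In both, replicate 2 labelled GFP-DUSP6 was the lowest of its group. Tyms, which makes thymidylate, had 936, 912 and 1018 normalized counts in the libraries labelled GFP-DUSP6, against 684, 693 and 699 in GFP libraries, a log2 fold change of 0.47 ± 0.07. Tk1, which salvages thymidine, had 909, 1000 and 1048 normalized counts in the libraries labelled GFP-DUSP6, against 684, 746 and 688 in GFP libraries, a log2 fold change of 0.48 ± 0.08. Both genes had GFP libraries close to each other and clearly below the libraries labelled GFP-DUSP6. Dut, which removes dUTP, is not listed.

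Genes that copy chromatin and methylation were called higher in 4 of 5 cases and lower in 0. Uhrf1, which binds newly copied, half-methylated DNA, had 2971, 3117 and 3342 normalized counts in the libraries labelled GFP-DUSP6, against 1996, 2196 and 2155 in GFP libraries, a log2 fold change of 0.57 ± 0.06. Dnmt1, the maintenance methyltransferase that UHRF1 recruits, had 3628, 3796 and 3905 normalized counts in the libraries labelled GFP-DUSP6, against 2692, 2971 and 2834 in GFP libraries, a log2 fold change of 0.42 ± 0.06. The groups were apart for both, and 15.4% of the 50-base words of Uhrf1 recur in other genes, most often in the pseudogene Gm5648. Chaf1b, a subunit of the histone chaperone CAF-1, had 620, 692 and 653 normalized counts in the libraries labelled GFP-DUSP6, against 389, 469 and 445 in GFP libraries, a log2 fold change of 0.59 ± 0.10. Its partner Chaf1a had 0.37 ± 0.09 in log2 fold change, with 52.5% of its exonic bases on the strand opposite Ubxn6 exons. Slbp, which binds histone mRNA, is not listed.

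The last role groups differed in what was listed. Tipin, which with TIMELESS protects forks, had 373, 351 and 378 normalized counts in the libraries labelled GFP-DUSP6, against 285, 203 and 215 in GFP libraries. Its log2 fold change was 0.65 ± 0.13, with GFP replicate 1 above the other two GFP libraries. Brca1, of homologous recombination and fork protection, had 943, 987 and 951 normalized counts in the libraries labelled GFP-DUSP6, against 821, 712 and 731 in GFP libraries, a log2 fold change of 0.35 ± 0.08. With Fanci, of crosslink repair, and Rpa2, which coats single-stranded DNA, not listed, 2 of these 4 were called higher and 0 lower. The G1/S regulators Ccne1 and Ccne2, the cyclins E that drive S-phase entry, and E2f1, a transcription factor for many members, are listed in neither table (0 of 3 called).

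Per kb of exon, the levels of the 29 members in GFP libraries spanned a 25.6-fold range. Rrm2 was highest, with a mean normalized count per kb of 1433 in the libraries labelled GFP-DUSP6 and 1108 in GFP libraries, followed by Mcm7 with 1236 in the libraries labelled GFP-DUSP6 and 995 in GFP libraries. Gins2 was lowest, with 71.1 in the libraries labelled GFP-DUSP6 and 43.3 in GFP libraries, and Cdc6 next, with 78.6 in the libraries labelled GFP-DUSP6 and 47.0 in GFP libraries. At the ends of this order, Rrm2 and Mcm7 had log2 fold changes of 0.37 and 0.31, and Gins2 and Cdc6 had 0.71 and 0.74. Between these ends log2 fold changes did not simply follow level: Uhrf1, Mcm5 and Mcm3, next after Mcm7 in level, had 0.57, 0.63 and 0.65, while the less abundant Prim1 and Brca1 had 0.34 and 0.35. Genes are listed for a low p, and the SE was 0.12 for Gins2 and 0.11 for Cdc6, against 0.06 for Rrm2 and Mcm7. A gene with a larger SE needs a larger log2 fold change to be listed. How far this shaped the order was not tested. Lengths are the union of annotated exons, which can overstate the transcript used. Among the ring subunits, Mcm7 carries 12.6% exonic overlap with other genes. It shares 23.3% of its 50-base words with other genes, overlapping ones included, and most often with the pseudogene Gm5487.

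**Figure D3:**
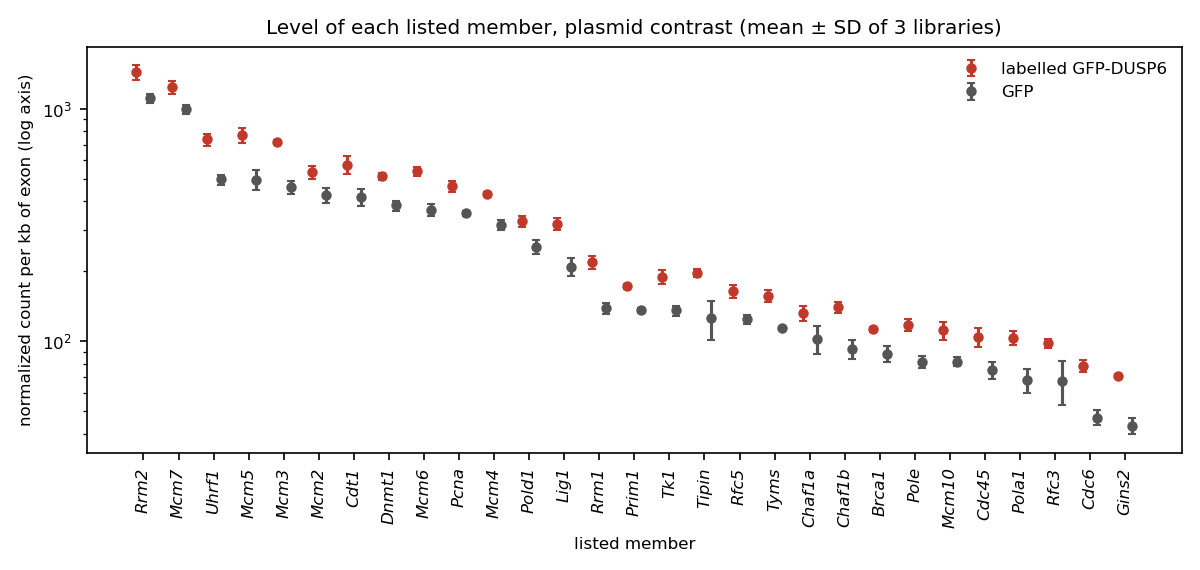
Normalized count per kb of exon (log axis, mean ± SD of 3 libraries) of the 29 listed members in the plasmid contrast, ordered by level in GFP libraries, with the libraries labelled GFP-DUSP6 left of GFP. Levels fall by 25.6-fold along the axis, and the mean is higher in the libraries labelled GFP-DUSP6 for every member shown.

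In the siRNA contrast, 7 of the 42 members (16.7%) were called lower in siDUSP6 libraries and 0 were called higher, by the same rule on the authors' deposited table. Of 13102 genes tested there, 7.19% were called lower, 7.76% higher and 15.0% in either direction, so the members' share lay near that of all genes called either way. The 7 are Mcm3, Mcm4, Pola1, Rfc5, Rrm1, Rrm2 and Chaf1b. Their median log2 fold change was -0.42, beside -0.45 over all 942 genes called lower. The groups did not overlap for any of the 7, as for 98.2% of the listed genes.

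Ribonucleotide reductase held the members with the lowest log2 fold changes. Rrm2 had 1538, 1776 and 1725 normalized counts in siDUSP6 libraries, against 3046, 3024 and 3133 in NC libraries, a log2 fold change of -0.87 ± 0.07. Rrm1 had 1203, 1230 and 1257 normalized counts in siDUSP6 libraries, against 1870, 1755 and 1608 in NC libraries, a log2 fold change of -0.50 ± 0.08. For both, every siDUSP6 library lay far below every NC library, and the adjusted p in the authors' deposited table (DESeq2) was 9.07e-25 for Rrm2 and 3.54e-07 for Rrm1. Pola1 had 475, 429 and 438 normalized counts in siDUSP6 libraries, against 725, 589 and 549 in NC libraries, a log2 fold change of -0.47 ± 0.12. Rfc5 had 397, 412 and 418 normalized counts in siDUSP6 libraries, against 493, 563 and 581 in NC libraries, a log2 fold change of -0.42 ± 0.10. NC replicate 1 was the highest NC library for Pola1 and the lowest for Rfc5. Chaf1b had 371, 350 and 410 normalized counts in siDUSP6 libraries, against 470, 553 and 436 in NC libraries, a log2 fold change of -0.37 ± 0.12.

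The MCM subunits had the smallest log2 fold changes of the 7. Mcm4 had 955, 995 and 937 normalized counts in siDUSP6 libraries, against 1252, 1263 and 1083 in NC libraries, a log2 fold change of -0.32 ± 0.08. Mcm3 had 1365, 1388 and 1219 normalized counts in siDUSP6 libraries, against 1679, 1729 and 1428 in NC libraries, a log2 fold change of -0.28 ± 0.09. NC replicate 3 was the lowest NC library for both. In the edgeR quasi-likelihood refit, which passed 12.3% of all tested genes (6.50% higher and 5.75% lower), 5 of the 7 passed, without Mcm3 (adjusted p = 0.0702) and Chaf1b (adjusted p = 0.0676). With the replicate number as a block, all 7 passed in the edgeR refit, at adjusted p = 0.00358 for Mcm3 and 0.0264 for Chaf1b. At an adjusted p under 0.01 in the authors' deposited table, 5 members were called, beside 9.52% of all tested genes. In the edgeR refit without NC replicate 2, siDUSP6 replicate 2 or siDUSP6 replicate 3, 2 of the 42 members passed each time (4.76%), Rrm1 and Rrm2, beside 7.27%, 5.30% and 6.17% of all tested genes. Without siDUSP6 replicate 1 it passed 3 members (7.14%), beside 9.17% of all tested genes. These members' shares are no larger than those over all genes in either direction, and of all tested genes 2.30% to 4.14% passed as lower in these 4 fits. Unlisted genes and members were not refitted and count as not passing in the refit shares.

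The contrasts share no library but differ in the nucleic acid transfected and in time. The 7 members called in both are, with their places on GRCm38 (GENCODE M21), Mcm3 (ENSMUSG00000041859) at chr1:20802968-20820312, Mcm4 (ENSMUSG00000022673) at chr16:15623897-15637400, Pola1 (ENSMUSG00000006678) at chrX:93304767-93632155, Rfc5 (ENSMUSG00000029363) at chr5:117378103-117389047, Rrm1 (ENSMUSG00000030978) at chr7:102441695-102469771, Rrm2 (ENSMUSG00000020649) at chr12:24708241-24714146 and Chaf1b (ENSMUSG00000022945) at chr16:93883901-93906115. All 7 are annotated as protein-coding. Each was higher in the libraries labelled GFP-DUSP6 and lower in siDUSP6 libraries, so 7 went in opposite directions and 0 in the same. They are 24.1% of the 29 members called in the plasmid contrast and 100% of the 7 called in the siRNA contrast. Over all genes, the 250 called in both are 43.1% of the plasmid calls and 12.8% of the siRNA calls, and 183 of them went in opposite directions and 67 in the same. Opposite directions were thus the more common case over all genes too. Over all genes, 30.9% of those higher in the plasmid contrast (132 of 427) were called lower in the siRNA contrast, so the members' 24.1% is no larger than that background. The 2 contrasts ranked the 7 genes differently. Rrm2 had the smallest plasmid log2 fold change of the 7, at 0.37 ± 0.06, and the largest drop in the siRNA contrast, at -0.87 ± 0.07, while Mcm3 had 0.65 ± 0.06 and -0.28 ± 0.09. Dusp6 itself was lower in both contrasts.

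**Figure D4:**
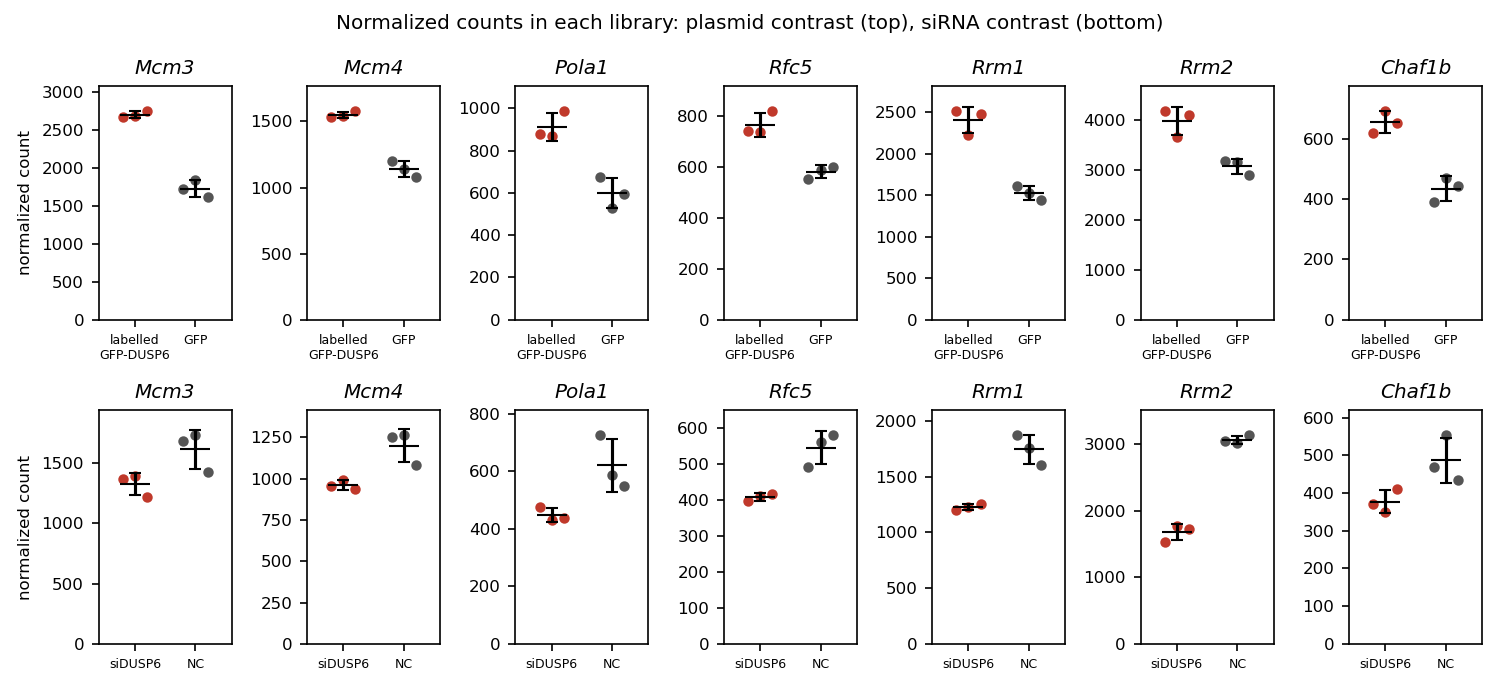
Normalized counts of the 7 members called in both contrasts, 1 point per library with mean ± SD (n = 3), labelled GFP-DUSP6 left of GFP in the top row and siDUSP6 left of NC in the bottom row; each panel has its own axis from 0. The groups are apart in all 14 panels, higher in the libraries labelled GFP-DUSP6 in the top row and lower in siDUSP6 libraries in the bottom row.

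Beyond the 42, other replication genes were read from a list of 46. In the plasmid contrast 20 were called higher and 0 lower (43.5% called, against 4.61% of all tested genes called either way), with a median log2 fold change of 0.46 among those called. They include Topbp1, a scaffold for helicase activation, at 0.49 ± 0.06, and Rpa1, of the single-strand binding complex, at 0.55 ± 0.07. In the siRNA contrast 9 were called lower, among them Rfc1, Dbf4, Asf1a, Asf1b, Nasp and Hells, and 1 higher, Samhd1, a dNTP hydrolase with a log2 fold change of 0.31 ± 0.10. These 10 are 21.7% of the list, against 15.0% of all tested genes called either way. Samhd1 was also called higher in the plasmid contrast (0.51 ± 0.10). The histone chaperone Asf1b fell in siDUSP6 libraries by 0.56 ± 0.13 on the log2 scale.

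Repair and checkpoint genes of S phase showed a like split. Of 18, 12 were called higher and 0 lower in the plasmid contrast (66.7%, beside 4.61% of all tested genes called either way). In the siRNA contrast 0 were higher and 6 lower (33.3%, beside 15.0%), with Chek1, Wee1 and Rad18 among the 6. Ung, which removes uracil from DNA, had a plasmid log2 fold change of 0.93 ± 0.16, the largest on that list. Chek1, the checkpoint kinase, had a plasmid log2 fold change of 0.56 ± 0.13 and an siRNA log2 fold change of -0.58 ± 0.15. Of 23 genes of G1/S control, 3 were called higher in the plasmid contrast, the factor Mybl2 (0.72 ± 0.08), the atypical repressor E2f8 (0.76 ± 0.14) and the pocket protein Rbl1 (0.59 ± 0.09). That is 13% of the list, beside 4.61% of all tested genes called either way. The siRNA contrast called 4 of the 23 (17.4%), a share near the 15.0% over all tested genes. Rbl1 (-0.51 ± 0.15) and Rb1 (-0.45 ± 0.13) were lower, and Ccnd2 (0.25 ± 0.08) and the cyclin-dependent kinase inhibitor Cdkn1a (0.35 ± 0.06) were higher.

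Markers of cell types moved beside these genes in both contrasts, and their part in the result was not tested. In siDUSP6 libraries 6 of 14 hepatocyte markers were called lower (42.9%, beside 7.19% of all tested genes). Among them were Alb (128 to 201 normalized counts, against 612 to 782 in NC libraries) and Ttr. The 6 summed to between 4312 and 4565 in siDUSP6 libraries and to between 5791 and 7126 in NC libraries. In the plasmid contrast 1 of 14 (7.14%) was called, Apob, higher, beside 4.61% of all tested genes called either way. Of 5 biliary markers, Krt19 and Sox9 were lower and Spp1 higher in the libraries labelled GFP-DUSP6 (60% called, beside 4.61% of all tested genes). Sox9 was higher and Spp1 lower in siDUSP6 libraries (40% called, beside 15.0% of all tested genes). Krt19, a biliary keratin, had 28525 to 29028 normalized counts in the libraries labelled GFP-DUSP6 and 36332 to 39123 in GFP libraries. The listed biliary markers summed to between 31284 and 31714 in the libraries labelled GFP-DUSP6 and between 38697 and 41222 in GFP libraries, and to between 2252 and 2388 in siDUSP6 libraries and between 2067 and 2323 in NC libraries, where Krt19 is not listed. Of 5 endothelial markers 1 (20%) was called, Stab1, in the plasmid contrast, beside 4.61% of all tested genes. Stab1 had 271 to 283 normalized counts in the libraries labelled GFP-DUSP6 and 112 to 141 in GFP libraries. On lists of 5, 1 called gene alone makes 20%. None of 5 stellate or 5 macrophage markers is listed in either table (0 called), which says nothing of their level.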

How the data were processed

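RNA of 12 libraries (4 groups of 3, from the sample titles; NEBNext Ultra kit per the labels' protocols) was counted per gene. Per the submitters' processing notes, DESeq2 and mm10 were used; the sources used here do not give the aligner, counter or annotation. The authors deposited raw counts, log2 fold changes, p-values and adjusted p-values, and in the siRNA table also a mean normalized signal and a linear fold ratio. Tables hold selected genes only, so whole-library depth is unknown; listed counts sum to 1303866 to 1531091 (plasmid) and 3500977 to 4078892 (siRNA) per library.

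Calls are adjusted p under 0.05 in the authors' deposited tables. Whole-library size factors (0.940 to 1.05) were recovered from the deposited mean signal (siRNA) or from the fold changes of 489 genes with over 200 counts in each library (plasmid, largest error 0.000652 on the log2 scale), and normalized counts are counts over these factors. Log2 fold changes ± SE came from edgeR 4.0.16 (R 4.3.3; quasi-likelihood test; filterByExpr, minimum count 10; SE = |log2 fold change| over the root of F), with Benjamini-Hochberg adjustment over 12592 and 13102 genes; DESeq2 1.42.0 was an alternative. Only listed genes were refitted, and the rest count as not passing. The script was tested on simulated data. Exon overlap and shared words came from GENCODE M21.

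Replicates of each group differed beyond sampling noise (3.98 to 26.7 as chi-square over degrees of freedom). Deviations of same-numbered libraries correlated at 0.558, 0.216 and 0.36 in the siRNA contrast. Differently numbered libraries came close: siDUSP6 replicate 3 with NC replicate 2 had 0.248, and siDUSP6 replicate 2 with NC replicate 3 had 0.195. Only replicate 1 thus stood apart as a pair, and the labels give no pairing. Members and lists were chosen with earlier results of these data known. Library values are given for members called in both contrasts and for up to 2 further members per role with the smallest adjusted p. Some genes of the wider lists are counted but not reported here by name.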

Additional observations from a re-analysis of the deposited data

How the results depend on the processing

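In the plasmid contrast the edgeR refit passed 29 members, as did DESeq2, the fit without a filter and the fit with a replicate block (29). Scaling on the listed genes by TMM passed 5 (Mcm3, Mcm5, Lig1, Rrm1 and Uhrf1) and by median of ratios 2 (Mcm3 and Rrm1), with Mcm7 at -0.012 in log2 fold change; both scalings take genes listed for their p as unchanged. Leaving out 1 library passed 17 to 29 members and 199 to 510 of all genes (529 with all libraries), lowest without replicate 3 labelled GFP-DUSP6. Same-numbered libraries correlated at 0.554, 0.41 and 0.028 here, so replicates 1 and 2 went together by number and replicate 3 did not. The labels give no pairing, and the main fits used no replicate block in either contrast. In the siRNA contrast the edgeR refit passed 5 members, and DESeq2, both scalings and the replicate block 7; leaving out 1 library passed 2 to 6, and 694 to 1408 of all genes (1605 with all libraries). All members kept their direction in every siRNA alternative, but groups that do not overlap left little room for another outcome. Of the 46 other replication genes and 18 S-phase repair genes together, 16 were called in the siRNA contrast at an authors' adjusted p under 0.05. This stood beside 15.0% of all tested genes. At 0.01 they numbered 6, beside 9.52% of all tested genes, so their share then lay near that of all genes. Unlisted members cannot be examined, and the depth of the libraries is unknown.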

Other observations

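Starts of genes that run the other way were sought within 1000 bases upstream of each member's start. For 5 of the 42 members (Orc1, Mcm4, Gins1, Pole and Brca1) the nearest such start belongs to a protein-coding gene. Pairs whose 5′ ends overlap were not counted. The start of Mcm4 lies 466 bases from that of Prkdc, that of Pole 120 bases from Pxmp2 and that of Brca1 194 bases from Nbr1 (GRCm38, GENCODE M21). These 3 members were called higher in the plasmid contrast, and 0 of the 5 partner genes is listed in either table. A gene that is not listed did not pass the authors' selection, which does not show that it was unchanged.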
